A study of Cicer arietinum with 8 samples.

Results

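A genotype by drought interaction was described here in chickpea roots, that is, the loci whose response to drought differed between a drought-tolerant and a drought-sensitive genotype. Root RNA was sequenced from 27-day-old seedlings of ICC4958 (drought-tolerant, DT) and ICC1882 (drought-sensitive, DS), each under drought (D) and with water (control, C). Per the labels, drought meant 11 days without water from 16 days of age in a growth chamber, while control plants of both genotypes were watered on alternate days, and the study's methods give another onset and length. The 4 groups were DT(D), DT(C), DS(D) and DS(C), with 2 libraries each and 8 in all, and each genotype is 1 accession, so that DT and DS differ in all that separates these accessions. The deposited values are FPKM, a fragment count scaled by transcript length and by the number of mapped fragments, with 1 value for each locus and condition that pools its 2 libraries.

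With pooled values there is no spread between replicates, so no difference reported here has a test, an SD or a replicate check, and the deposited file does not give the depth behind a value. For each locus, the drought difference of a genotype was its log2(FPKM + 1) under drought minus that under control. The difference of differences was the drought difference of DT minus that of DS, on the log2(FPKM + 1) scale, which understates the change of low loci. Of 30978 loci, 20745 had an FPKM of at least 1 in any condition. Of these, 502 had a difference of differences of 2 or more in size, which is 2.42% of the loci used. The 161 loci at 2 or above (0.776%) had the more positive drought difference in DT, and the 341 loci at -2 or below (1.64%) had it in DS. The sign does not tell which genotype responded, since a locus lower under drought in DS alone also has a positive value. A subset of both sets moved in opposite directions by 1 or more in each genotype, namely 32 loci higher under drought in DT and lower in DS (0.154%) and 42 loci lower in DT and higher in DS (0.202%). These values chose the loci and are a description.

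Plants short of water reset root metabolism, signalling and growth, and a genotype by environment interaction is the part of that response that is not shared between genotypes. It can arise on either side, since a gene may respond in the tolerant line, in the sensitive line, or in both with different size. In chickpea, ICC4958 is known for a vigorous root system and is a common tolerant parent in crosses with ICC1882. Among the pathways the study followed, phosphoinositide signalling turns membrane lipids into second messengers, the glutathione and ascorbate system removes hydrogen peroxide, and glycolysis with fermentation supplies energy and carbon to the root. In whole roots, fewer cells of a type and less RNA per cell cannot be told apart. The root label itself was not checked against marker genes, because 0 of the 28269 gene identifiers of the file (Ca_ followed by a number) matched the RefSeq gene table, and gene names given here are those of the study.

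The 2 lowest differences of differences among the genes of the study's lists were those of RLP21 (receptor like protein 21) and PI-PLC (phosphatidylinositol-specific phospholipase C), and both were RT-qPCR targets of the study. Their primers are shown as those the study lists for these 2 genes, and their match to the loci that carry these values was not checked. The primers are written 5′ to 3′ in lower case with nothing marked, and their places in the genome were not located here.
RLP21 (Ca_04471), forward: ttggttggattcattcctgatg
RLP21 (Ca_04471), reverse: ggacaaattcaagccatgca
PI-PLC (Ca_12485), forward: tgagcagcgattgcagtgat
PI-PLC (Ca_12485), reverse: caattactcgcacacctctttgc

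RLP21 belongs to the receptor-like proteins, membrane proteins with leucine-rich repeats outside the cell and no kinase domain inside. Its FPKM was 1.92 in DT(D) and 12.4 in DT(C), against 3.43 in DS(D) and 3.69 in DS(C). DT(C) stood above the other 3 conditions, while the values of DS were close to each other. The drought difference was -2.203 in DT and -0.08 in DS, which gave a difference of differences of -2.12. RLP21 was the only gene of the lists described below, and the only one of 17 genes with RT-qPCR primers, among the 502 loci. Its value lay near the threshold, at -1.29 with a pseudocount of 5, -1.96 after centring within groups of expression level and -1.96 after quantile normalization, so that these settings leave it outside the set.

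PI-PLC cleaves a membrane phosphoinositide into diacylglycerol and an inositol phosphate that act as messengers. Its FPKM was 0.471 in DT(D) and 5.47 in DT(C), against 0.879 in DS(D) and 1.59 in DS(C). As in RLP21, DT(C) was the highest condition, and the genotypes were closer under drought than under control. The drought difference was -2.14 in DT and -0.46 in DS, and the difference of differences was -1.67. Its FPKM was under 1 in both drought conditions, and the value was -2.499 with a pseudocount of 0.1 and -0.77 with one of 5, where it was no longer among the 2 lowest.

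**Figure D1:**
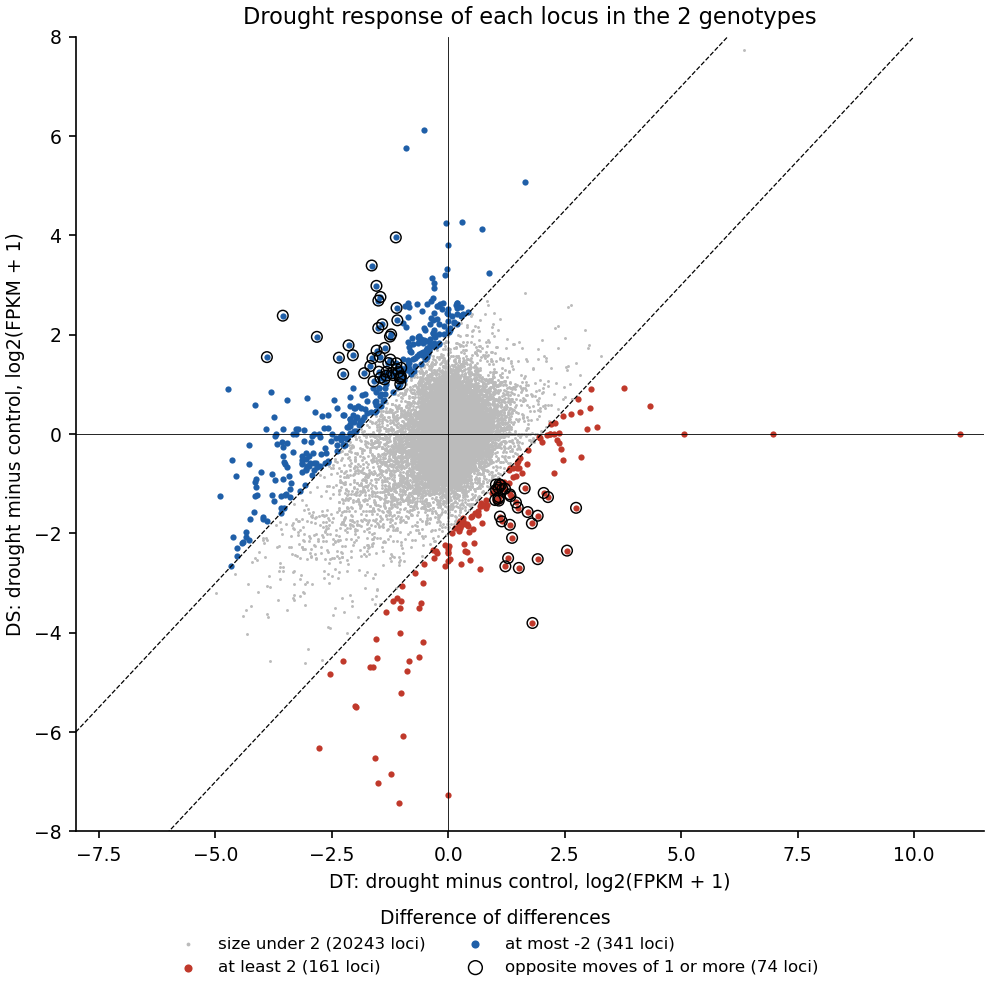
Drought minus control in DT (x axis) against drought minus control in DS (y axis), both in log2(FPKM + 1), with 1 point for each of the 20745 loci. Red and blue points are the 161 loci at 2 or above and the 341 at -2 or below, outside the dashed lines that mark a difference of differences of 2 and -2, and circles mark the 74 loci with opposite moves of 1 or more.

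Over all 20745 loci the difference of differences had a median of 0.01, quartiles of -0.44 and 0.44, and a range from -6.68 to 10.99, with the central 95% between -1.71 and 1.42. Thus the lower tail was the longer one in this central range, although the single largest value was positive. Sizes of at least 3 were reached by 39 loci above 0 and 79 below, and sizes of at least 4 by 15 and 19. The thresholds cut through a continuous range. The loci just inside had 2.01 and -2.001 and those just outside 1.999 and -1.99. Between 1.8 and 2 there were 95 loci, against 60 between 2 and 2.2, and on the negative side 102 and 93. Among the opposite movers, the smallest of the smaller moves were 1.01 in the set higher in DT and 1.00 in the set lower in DT, and the nearest loci left out had 0.998 for both.

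The positive set, with a difference of differences of 2 or more, made up 32.1% of the 502. This share depended on scale. The summed FPKM was about 1352240 in DT(D), 1378430 in DT(C), 1204310 in DS(D) and 1662840 in DS(C), and DS(C) was the highest. When the columns were rescaled to the same sum, the median of all loci shifted to -0.37, and 88 loci lay at 2 or above and 550 at -2 or below, so that the share of positive loci was 13.8%. The excess of negative over positive loci held under each scaling tried, that is, rescaling to the same sum, centring on the median, centring within 10 expression groups and quantile normalization.

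The 502 loci were then split by the genotype that moved by 1 or more. Over all loci used, DT was higher under drought by 1 or more at 3.05% and lower at 7.18%, and DS was higher at 4.43% and lower at 6.79%. In the positive set, DT alone was higher under drought at 46 loci, DS alone was lower at 63, both moved in opposite directions at 32, and both were lower at 20. In the negative set, DT alone was lower at 145 loci, DS alone was higher at 123, both moved in opposite directions at 42, both were lower at 30 and both were higher at 1. Thus 191 of the 502 loci moved by 1 or more in DT alone and 186 in DS alone, and neither genotype accounted for the set by itself. Over all 20745 loci used, 1316 moved in DT alone (514 higher, 802 lower) and 1521 in DS alone (790 higher, 731 lower).

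The gap between the genotypes, DT minus DS, was also followed from one condition to the other. A gap of 1 or more under drought only was found at 152 of the 502 loci (30.3%, against 5.15% of the loci used). A gap under control only, which closed under drought, was found at 249 loci (49.6%, against 8.13%). At 92 loci (18.3%, against 0.443%) the gap had a size of 1 or more in both conditions and changed sign, and at the remaining 9 (1.79%, against 2.1%) it kept its sign. For the first 3 classes, a larger share than among all loci follows from the rule. Their order is not fixed by it, but more gaps closed than opened over all loci used as well. There, 1068 gaps opened under drought and 1686 closed. In the negative set 92 gaps opened under drought and 186 closed, whereas in the positive set 60 opened and 63 closed. The median gap of the negative set was -0.89 under drought and 1.65 under control, and that of the positive set 1.25 under drought and -1.37 under control. These are medians of signed gaps, in sets that the gaps themselves chose, so they do not tell how far the genotypes differed in each condition.

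**Figure D2:**
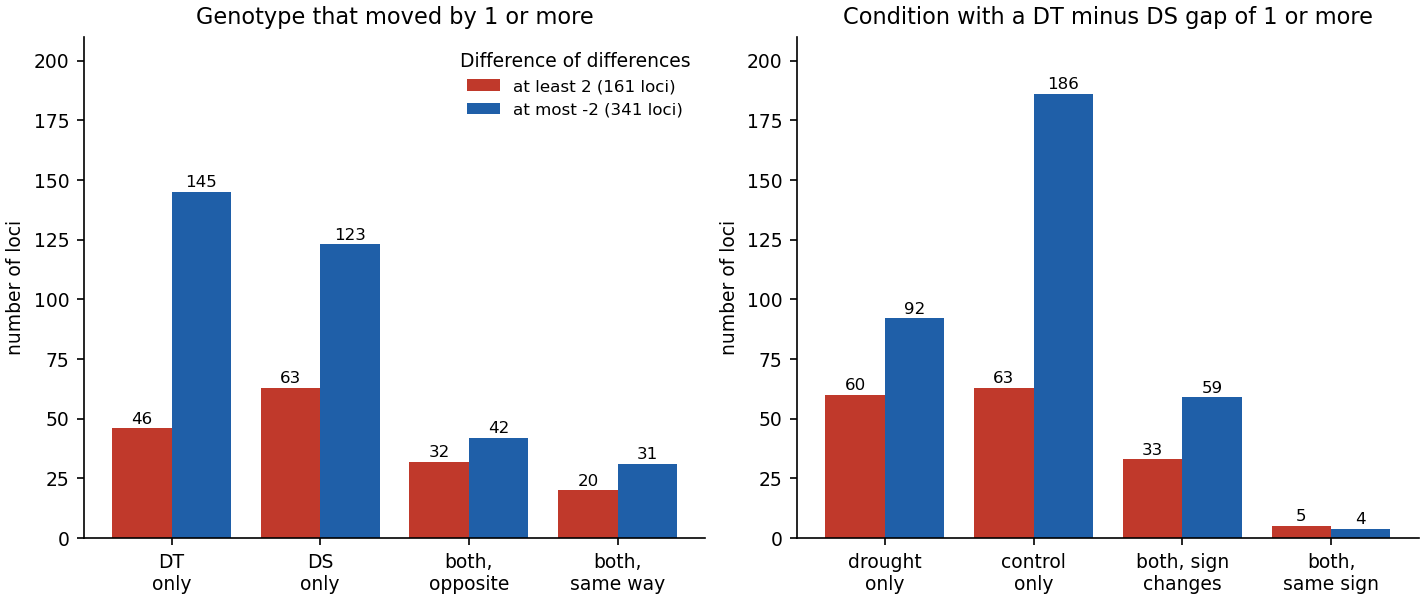
Number of loci (y axis) in the positive set (red, 161 loci) and the negative set (blue, 341 loci), by the genotype that moved by 1 or more on the log2(FPKM + 1) scale (left) and by the condition in which DT and DS were 1 or more apart (right). In the negative set 92 loci differed under drought only and 186 under control only, and in the positive set these numbers were 60 and 63.

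The condition that held the highest value was DT(D) at 64 and DS(C) at 96 of the 161 positive loci. At the 341 negative loci it was DT(C) at 202 and DS(D) at 128. The rule itself favours these conditions in each set, and it favours the profiles given next in the same way. Over all loci used the highest value was in DT(D) at 6071, DT(C) at 5468, DS(D) at 3982 and DS(C) at 5224. When 1 condition had to lie 1 or more above each of the other 3, the positive set held 24 loci of DT(D) and 51 of DS(C), and the negative set held 119 of DT(C) and 42 of DS(D). When it had to lie below, the positive set held 20 loci of DT(C) and 32 of DS(D), and the negative set 65 of DT(D) and 77 of DS(C). RLP21 had the peak in DT(C), and so did PI-PLC. This peak was the most frequent of these profiles among the members, and it was so over all loci used as well, with 477 loci, against 143 with a peak in DT(D), 128 in DS(D) and 207 in DS(C), and at most 258 with any low profile.

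A value lower under drought by 1 or more in both genotypes, but by unequal size, was found at 50 of the 502 loci. Over all 20745 loci used, 645 were lower by 1 or more in both. In the 20 positive loci of this kind the median FPKM was 7.22 in DT(D), 19.9 in DT(C), 2.31 in DS(D) and 172 in DS(C). Their drought difference ranged between -2.77 and -1.01 in DT and between -7.43 and -3.31 in DS, and 19 of the 20 had their highest value in DS(C). The 30 negative loci of this kind had their highest value in DT(C) without exception, with a median FPKM of 3.31 in DT(D), 78.0 in DT(C), 7.83 in DS(D) and 26.7 in DS(C). The gap between the genotypes was larger under control than under drought at 14 of the 20 and at 27 of the 30. A single member was higher by 1 or more under drought in both genotypes, against 87 of all loci used. This locus had no gene identifier, and its FPKM was 8.0 in DT(D), 1.89 in DT(C), 32.6 in DS(D) and a listed 0 in DS(C).

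The loci with the largest values among those with 1 gene identifier and an FPKM of at least 10 somewhere were Ca_19561 and Ca_08213 on the positive side. Ca_08213 had an FPKM of 18.8 in DT(D) and 40.6 in DT(C), against 3.70 in DS(D) and 809 in DS(C). Its level in DS(C) was the highest and that in DS(D) the lowest, and the difference of differences was 6.36. Ca_19561 had an FPKM of 154 in DS(C) and was listed at 0 in DT(D), DT(C) and DS(D), with a difference of differences of 7.28 that depends on the pseudocount.

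On the negative side they were Ca_02836 and Ca_27296. Ca_02836 had an FPKM of 3.12 in DT(D) and 108 in DT(C), against 245 in DS(D) and 131 in DS(C), and its difference of differences was -5.63. Under control the genotypes were alike at this locus (a gap of -0.27), and under drought the gap was -5.90. Ca_27296 had an FPKM of 7.61 in DT(D), 17.8 in DT(C) and 14.6 in DS(D) and was listed at 0 in DS(C), which gave -5.09. That size depends on the pseudocount, with -8.41 at a pseudocount of 0.1 and -2.82 at one of 5. Neither the file nor the study's lists give these 4 identifiers a name.

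Zeros were frequent among these loci. At least 1 condition was listed at 0 for 100 of the 502, against 514 of all 20745 loci used, and a 0 in such a file can be an estimate that failed. In the positive set 25 loci were listed at 0 in DT(C) and 27 in DS(D), and in the negative set 28 in DT(D) and 50 in DS(C). The rule favours loci with a listed 0, since such a value enters the difference of differences, and it favours these conditions in each set. Without any locus listed at 0, 124 positive and 278 negative loci remained.

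The largest value of all came from a group of 3 loci with neighbouring identifiers, singled out after their values were seen. The locus of Ca_18460 and Ca_18462 had an FPKM of 2039 in DT(D), that of Ca_18458 and Ca_18464 had 125, and Ca_18463 had 32.5. All 3 were listed at 0 in DT(C), DS(D) and DS(C), with differences of differences of 10.99, 6.97 and 5.07 that depend on the pseudocount. The loci of Ca_18457, Ca_18459 and Ca_18461 were listed at 0 in all 4 conditions. In contrast, Ca_18455 and Ca_18456, which come before them in number, were present everywhere, with 201 and 362 in DT(D), 156 and 320 in DT(C), 200 and 344 in DS(D), and 173 and 427 in DS(C). Whether 1 or both libraries of DT(D) held these transcripts cannot be read from a pooled value.

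Opposite responses of 1 or more in both genotypes were found at 74 loci, and most were small. Only 7 of the 32 loci higher in DT and 12 of the 42 lower in DT had a smaller move of 1.5 or more, and 1 in each set reached 2. The highest FPKM of a locus was 10 or more at 16 of the 32 and 25 of the 42, and under 5 at 9 and 8. The sets mirrored each other across conditions. In the first set DT was higher than DS in 29 of 32 loci under drought and in 0 under control, and in the second set in 0 of 42 under drought and in 39 under control. The rule favours this order without fixing it.

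Among the loci higher in DT and lower in DS under drought, Ca_18303 and Ca_24272 had the largest smaller moves of those with 1 gene identifier and an FPKM of at least 10 somewhere. Ca_18303 had an FPKM of 10.7 in DT(D) and 0.990 in DT(C), against 1.71 in DS(D) and 12.8 in DS(C). DT under drought thus resembled DS under control, and the difference of differences was 4.90. Ca_24272 had an FPKM of 2.79 in DT(D), a listed 0 in DT(C), 2.08 in DS(D) and 16.6 in DS(C), with a difference of differences of 4.44. That size was 7.79 with a pseudocount of 0.1 and 2.25 with one of 5. Ca_00414, named after its values were seen because it had the highest FPKM of the set, had 566 in DT(D) and 198 in DT(C), against 209 in DS(D) and 1360 in DS(C). It showed that such reversals also occurred at high expression, with a difference of differences of 4.21.

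Among the loci lower in DT and higher in DS under drought, Ca_21128 and Ca_08353 were named by the same rule, with smaller moves of 1.54 and 1.47. Loci without an identifier or with a lower FPKM had larger ones, up to 2.38. Ca_21128 had an FPKM of 4.71 in DT(D) and 15.6 in DT(C), against 23.3 in DS(D) and 6.59 in DS(C), with a difference of differences of -3.22. Ca_08353 had 12.7 in DT(D) and 36.9 in DT(C), against 29.5 in DS(D) and 9.37 in DS(C), with -3.03. In both, DT was the higher genotype under control and DS under drought. The most highly expressed locus of this set, again chosen after the values were seen, had no gene identifier, and its FPKM was 114 in DT(D), 297 in DT(C), 260 in DS(D) and 121 in DS(C).

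**Figure D3:**
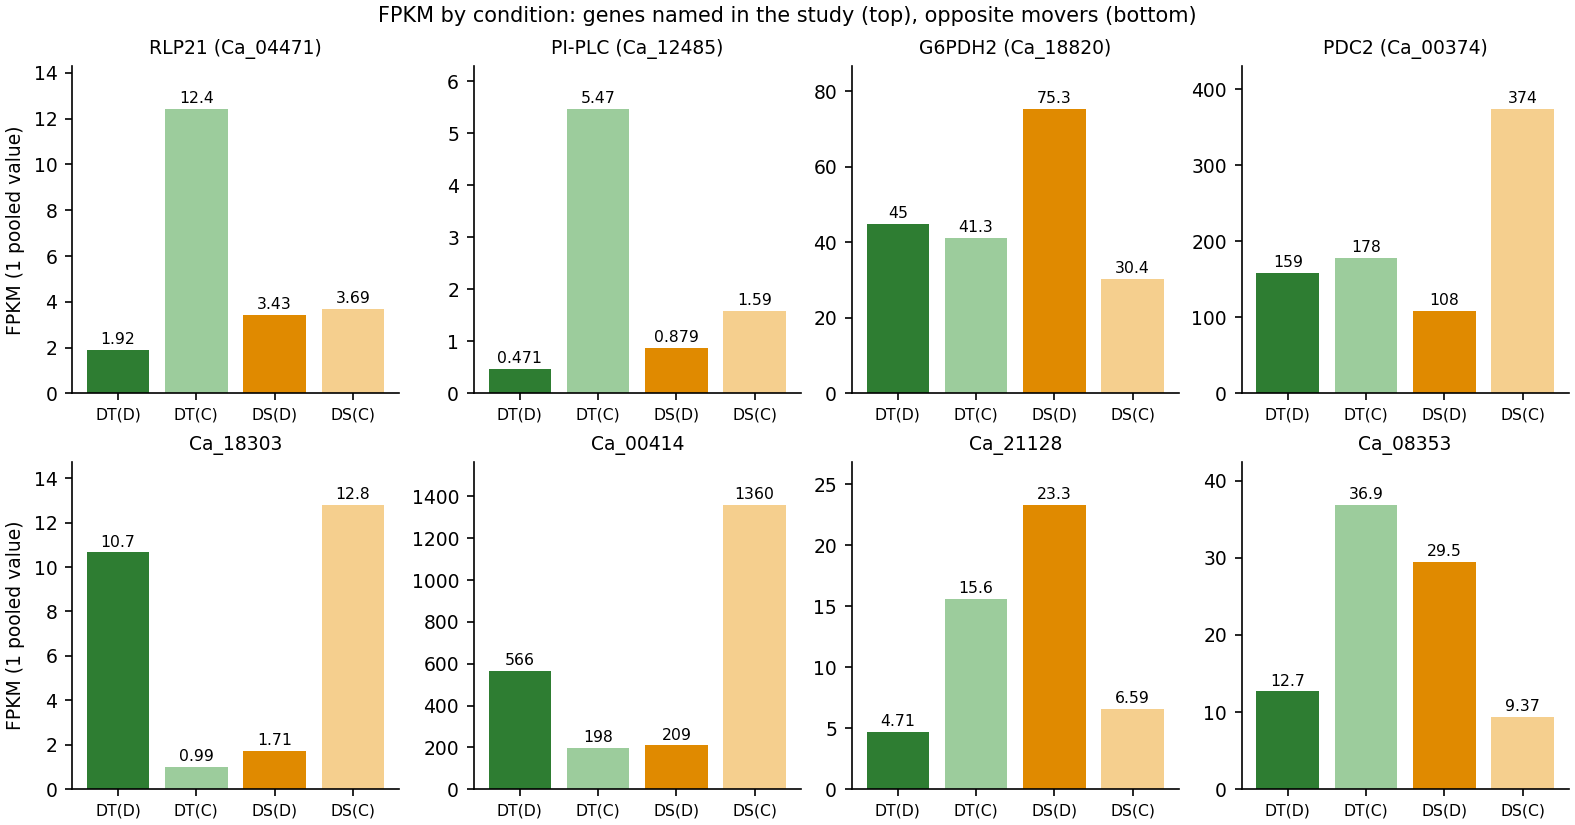
FPKM (y axis, each panel from 0 with its own scale) in DT(D), DT(C), DS(D) and DS(C) for 4 genes named in the study (top) and 4 opposite movers (bottom), with 1 pooled value per bar and therefore no error bar. RLP21 and PI-PLC were highest in DT(C), PDC2 in DS(C), and Ca_18303 had 10.7 in DT(D) and 12.8 in DS(C) against 0.990 in DT(C) and 1.71 in DS(D).

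A region of the chickpea genome known as the QTL-hotspot holds several loci mapped for drought tolerance traits in crosses of these genotypes, and the list holds 22 genes of it that the study named for a co-expressed transcript or, as with carboxylesterase 20, a co-expressed protein. These lists were chosen by the study on the same samples, so their counts are not independent evidence of a direction. All 22 were expressed, 3 were at 1 or above and 5 at -1 or below, where 6.72% and 8.63% of all loci used were. The median was -0.42, beside 0.01 over all loci. After RLP21, the myosin heavy chain-related gene Ca_04474 had the next lowest value, with an FPKM of 3.74 in DT(D) and 7.49 in DT(C), against 5.25 in DS(D) and 2.68 in DS(C), and a difference of differences of -1.60. DT was thus lower and DS higher under drought at this gene.

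The same profile was found in 2 regulatory genes. The MADS-box transcription factor gene Ca_04518 had 6.85 in DT(D) and 13.7 in DT(C), against 11.1 in DS(D) and 7.97 in DS(C), with a difference of differences of -1.34. SNF2 (Ca_04622), of a family of ATP-dependent chromatin remodelling proteins, had 4.85 in DT(D) and 6.64 in DT(C), against 6.19 in DS(D) and 3.17 in DS(C), with -1.17. By contrast the cytochrome P450 gene Ca_04587, of a family of haem-containing oxidases, was lower under drought in both genotypes. Its FPKM was 0.640 in DT(D) and 3.42 in DT(C), against 0.0942 in DS(D) and 0.334 in DS(C). The drought difference was -1.43 in DT and -0.29 in DS, and the difference of differences was -1.14. Both DS values lay under the added 1, which understates the change in DS. With a pseudocount of 5 the values of these genes were smaller in size, at -0.93 for Ca_04474, -0.97 for Ca_04518, -0.69 for SNF2 and -0.51 for Ca_04587.

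The 3 positive genes of the region were OFP, carboxylesterase 20 and MYB. OFP (Ca_04584), of the ovate family known in Arabidopsis as transcriptional repressors, had an FPKM of 6.02 in DT(D) and 2.64 in DT(C), against 5.76 in DS(D) and 7.69 in DS(C), with a difference of differences of 1.31. DT(C) was the low condition in this gene. Carboxylesterase 20 (Ca_04524), an ester hydrolase, had 73.8 in DT(D) and 73.6 in DT(C), against 57.4 in DS(D) and 133 in DS(C), with 1.20 from DS alone. MYB (Ca_04621), a transcription factor gene, had 2.34 in DT(D) and 1.39 in DT(C), against 0.770 in DS(D) and 1.90 in DS(C), with 1.19. A pseudocount of 5 gave 0.77 for OFP and 0.46 for MYB, and rescaling to the same sum gave 0.77 for carboxylesterase 20. Large drought differences in both genotypes can also leave a difference of differences smaller in size than 2. The AP2-EREBP transcription factor gene Ca_04504 was named after its values were seen. It had 17.7 in DT(D) and 350 in DT(C), against 10.1 in DS(D) and 122 in DS(C). The drought differences were -4.23 in DT and -3.47 in DS, and the difference of differences was -0.76. The median of its expression group was 0.26, and whether its response differed between the genotypes was not tested.

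In the phosphoinositide list, which holds 17 genes of lipid signalling and inositol phosphate turnover, all 17 were expressed, 0 were at 1 or above and 2 at -1 or below. Over all loci used, the shares were 6.72% at 1 or above and 8.63% at -1 or below. The median was -0.26, and 10 of the 17 were below 0. Besides PI-PLC, the gene at -1 or below was PGM-like (Ca_10542), which encodes a phosphoglycerate mutase-like protein. It had an FPKM of 10.4 in DT(D) and 8.43 in DT(C), against 12.6 in DS(D) and 4.14 in DS(C), and a difference of differences of -1.13, which was -0.75 with a pseudocount of 5. These genes reached similar values in different ways, PI-PLC by a lower value in DT under drought and PGM-like by a higher value in DS. The other 15 genes lay between -0.92 and 0.87.

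The glutathione and ascorbate list holds 27 genes, of which 25 were expressed. None were at 1 or above (0 of 25), 2 were at -1 or below, and the median was 0.32. All loci used had shares of 6.72% and 8.63%, so that 2 of 25 at -1 or below was close to the share over all loci. APX6 (Ca_01758), an ascorbate peroxidase, reduces hydrogen peroxide with ascorbate. Its FPKM was 6.71 in DT(D) and 12.9 in DT(C), against 9.06 in DS(D) and 7.01 in DS(C), with a difference of differences of -1.18. With a pseudocount of 5 the value of APX6 was -0.84. G6PDH2 (Ca_18820), a glucose-6-phosphate dehydrogenase, makes NADPH, on which the reduction of glutathione depends. Its FPKM was 45.0 in DT(D) and 41.3 in DT(C), against 75.3 in DS(D) and 30.4 in DS(C), with -1.16 from the higher value in DS(D). With a pseudocount of 5 the value of G6PDH2 was -1.07. The other 23 genes lay between -0.78 and 0.99.

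The glycolysis and gluconeogenesis list had the highest median, 0.39, with 43 of its 44 genes expressed, 6 at 1 or above and 1 at -1 or below. Beside these counts, 6.72% of all loci used were at 1 or above and 8.63% at -1 or below. The 6 positive genes encode enzymes of sugar breakdown and of the steps that follow pyruvate. PFK (Ca_00673), the phosphofructokinase of the committed step, had an FPKM of 82.3 in DT(D) and 71.0 in DT(C), against 36.9 in DS(D) and 70.1 in DS(C), with a difference of differences of 1.12. Its levels in control roots were alike in both genotypes, and DS(D) stood apart. Other genes of the same name did not share this size, with 0.47 for PFK Ca_14808 and -0.02 for PFK4 Ca_08339.

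Aldolase (Ca_27205), which splits the hexose bisphosphate, had an FPKM of 2177 in DT(D) and 1927 in DT(C), against 1513 in DS(D) and 2876 in DS(C), with a difference of differences of 1.10. TPI (triosephosphate isomerase, Ca_02616), which interconverts the triose phosphates, had 1732 in DT(D) and 1280 in DT(C), against 1063 in DS(D) and 1754 in DS(C), with 1.16. PGK (phosphoglycerate kinase, Ca_22673), an ATP-producing step, had 757 in DT(D) and 582 in DT(C), against 555 in DS(D) and 903 in DS(C), with 1.08. All 3 were lower under drought in DS, by 0.93, 0.72 and 0.70 on the log2(FPKM + 1) scale, and higher in DT by 0.18, 0.44 and 0.38. A second TPI gene, Ca_00722, had a difference of differences of 0.74.

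Downstream of pyruvate, PDC2 (Ca_00374), the pyruvate decarboxylase that opens ethanolic fermentation, had the largest value of the list, 1.61. Its FPKM was 159 in DT(D) and 178 in DT(C), against 108 in DS(D) and 374 in DS(C), so that DS(C) was the high condition. LPD2 (Ca_03055), a lipoamide dehydrogenase of the oxoacid dehydrogenase complexes, had 229 in DT(D) and 170 in DT(C), against 132 in DS(D) and 202 in DS(C), with 1.03. FBPase (fructose 1,6-bisphosphatase, Ca_00102), which works against phosphofructokinase in gluconeogenesis, was the gene at -1 or below. It had 24.97 in DT(D) and 64.2 in DT(C), against 13.2 in DS(D) and 16.5 in DS(C), with -1.03, and DT(C) was its high condition. With a pseudocount of 5 the value of FBPase was -0.97.

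**Figure D4:**
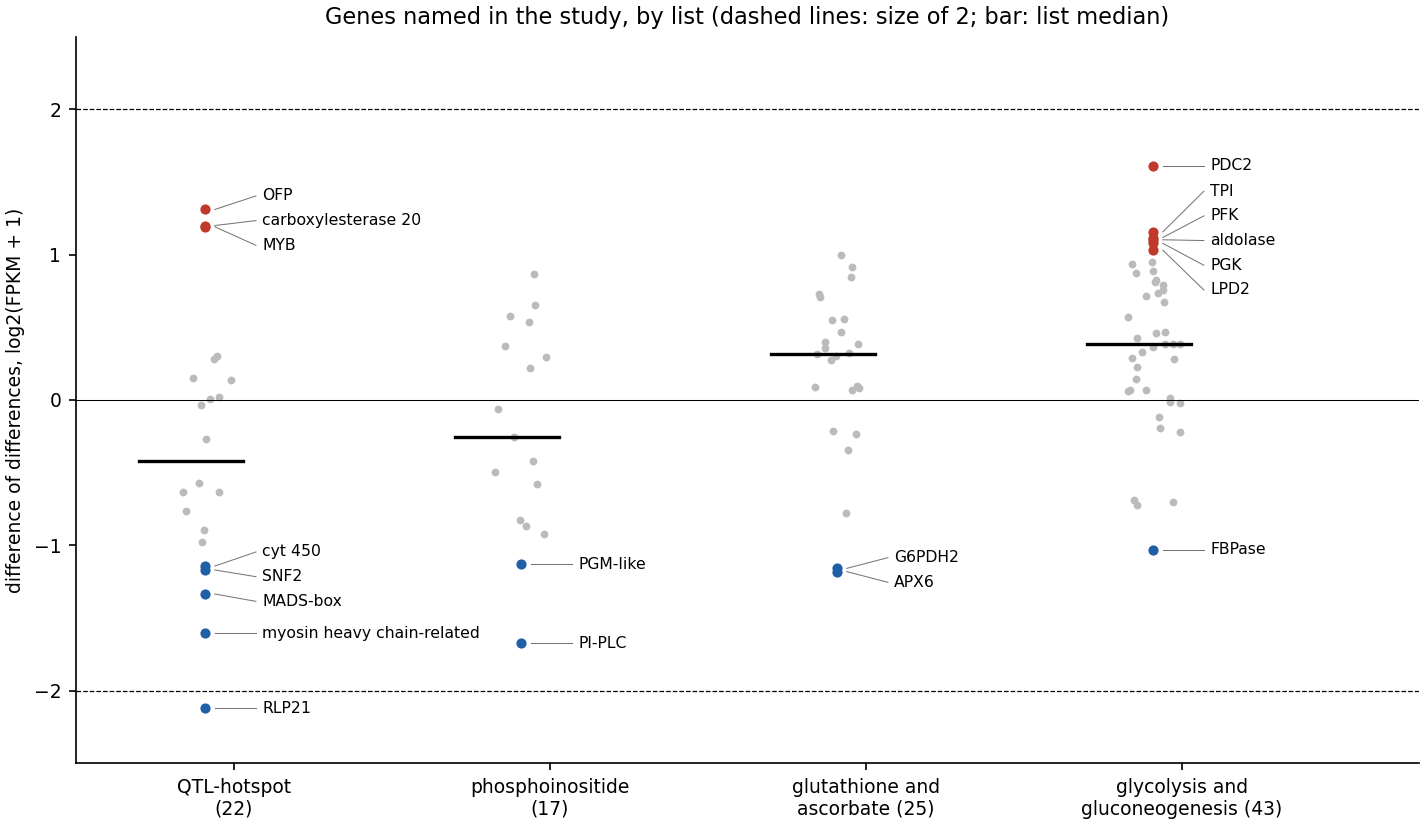
Difference of differences in log2(FPKM + 1) (y axis) of the expressed genes of each list, with the number of genes in brackets, 1 point per gene and a bar at the list median. Named points have a size of 1 or more, and of these RLP21 at -2.12 alone lies outside the dashed lines at 2 and -2.

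These list values have to be read beside a trend with expression level that ran through the whole file. In 10 groups of equal size by mean log2(FPKM + 1), the median difference of differences went up from -0.20 in the lowest group to 0.54 in the highest. The median drought difference of DT changed little, between 0.01 in group 1 and 0.06 in group 10, whereas that of DS was 0.17 in group 1 and -0.50 in group 10. The trend thus lay in DS. Of the glycolysis list, 17 of 43 genes were in the highest group, and so were 8 of 25 of the glutathione and ascorbate list. Against the median of their own expression group, 28 of 43 genes were higher in the glycolysis list, 15 of 25 in the glutathione and ascorbate list, 6 of 17 in the phosphoinositide list and 6 of 22 in the QTL-hotspot list. Centred within these groups, the medians were 0.14 for glycolysis, 0.04 for glutathione and ascorbate, -0.25 for phosphoinositide and -0.43 for the QTL-hotspot. With the columns rescaled to the same sum, the glycolysis median was -0.03 and the glutathione and ascorbate median -0.09, so that the positive direction of these lists does not hold under that scaling, while the other medians stayed negative, at -0.66 and -0.76. The 6 positive glycolysis genes also came closer to 0 when centred within the groups, at 1.06 for PDC2, 0.85 for PFK, 0.60 for TPI, 0.55 for aldolase, 0.52 for PGK and 0.48 for LPD2, so that PDC2 alone stayed above 1. With the columns rescaled to the same sum they lay between 0.60 and 1.18, and after quantile normalization between 0.36 for TPI and 1.22 for PDC2.

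The 502 loci also differed from the rest in features that the rule did not use. First, 44% of them had no gene identifier, that is, they were loci assembled outside the annotated genes, against 14.8% of all loci used. The share was 31.7% in the positive set and 49.9% in the negative set, and 40.6% and 59.5% among the opposite movers higher and lower in DT. Seen from the other side, 221 of 3077 loci without an identifier (7.18%) and 281 of 17668 with one (1.59%) were among the 502. This was also seen at matched expression level, where the share was higher for loci without an identifier in 10 of 10 expression groups, at 9.4% against 2.27% in the lowest and 4.07% against 1.02% in the highest. The highest FPKM per locus, in contrast, comes from the values that the rule used. Its median was 24.3 in the positive set and 16.0 in the negative set, beside 17.9 over all loci used.

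**Figure D5:**
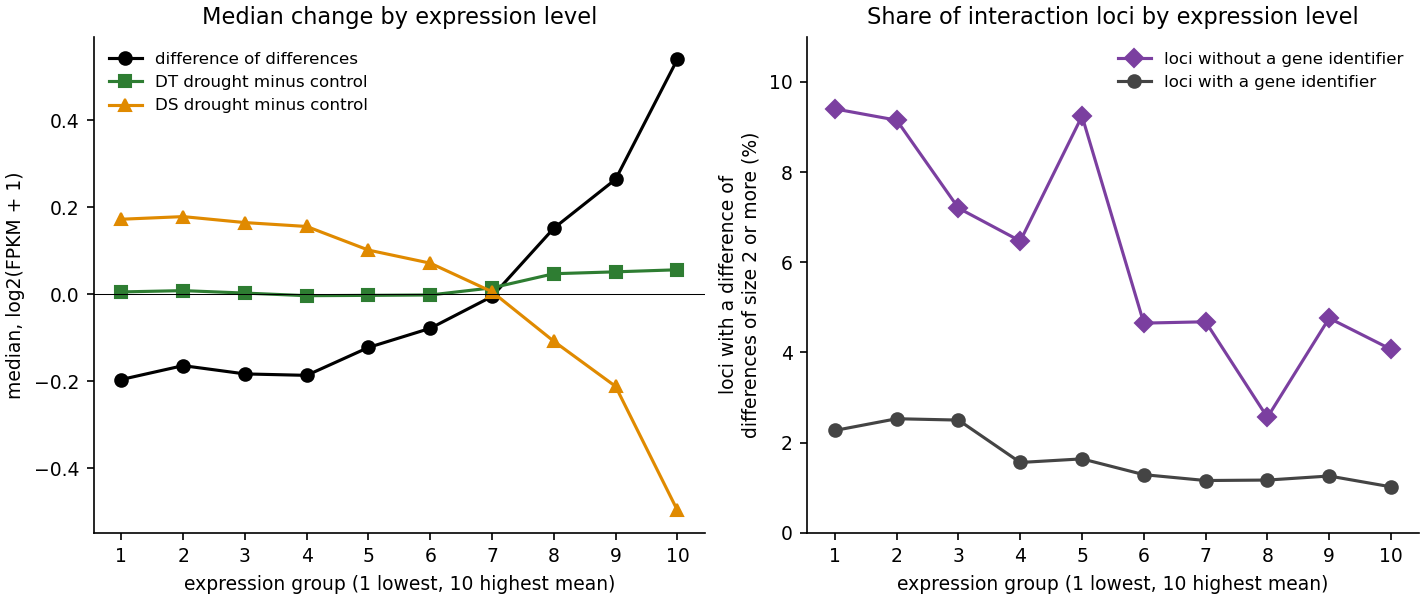
Median drought difference of DT and DS and median difference of differences in log2(FPKM + 1) (left), and percent of loci with a difference of differences of 2 or more in size, split by whether the locus had a gene identifier (right), in 10 groups of mean expression (x axis). The DS median runs from 0.17 in group 1 to -0.50 in group 10, and loci without an identifier lie above those with one in every group.

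Second, members lay beside each other in the locus numbering of the merged assembly. For 70 of the 502 loci (13.9%) a locus with the next higher or lower number was also among them, whereas this held for 3.64% of all loci used. The negative set accounted for most of this, with 55 of 341 loci (16.1%, against 2.48%) beside another of the same set, and the positive set for 6 of 161 (3.73%, against 1.21%). The neighbours formed 36 adjacent pairs, of which 31 had the same sign. Both loci lacked an identifier in 28 of these pairs and both had one in 8, whereas both lacked one in 1913 of the 15871 adjacent pairs of loci used. Whether adjacent loci are pieces of 1 transcript was not tested, and the 502 loci are not taken as independent of each other.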

How the data were processed

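Reads were filtered with NGS QC Toolkit, mapped to the kabuli chickpea genome with TopHat2 2.1.1 and assembled with Cufflinks and Cuffmerge (Cufflinks and Cuffdiff 2.2.1, per the submitters' processing notes). The FPKM values deposited by the authors are normalized for transcript length and mapped fragments, with 1 column per condition that pools 2 libraries, and the library normalization is not given in the sources used here. The deposited file holds no read depth, so no interval was computed.

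From these values log2(FPKM + 1) and the difference of differences were computed for loci with an FPKM of at least 1 in any column. No test was run. The members and lists were chosen with earlier results of these data known. Genes are named where a listed or primer gene was a member, where a listed gene had a size of at least 1, and, among loci with 1 identifier and an FPKM of at least 10, for the 2 largest and 2 smallest values and the 2 opposite movers each way whose smaller move was largest. One gene that the study names is not reported here. PFK Ca_14808, PFK4 Ca_08339 and TPI Ca_00722 were added after their values were seen, as namesakes of genes under this rule. The alternatives were pseudocounts of 0.1 and 5, other filters, rescaling, centring and quantile normalization. Python 3.11.15, numpy 2.4.6 and pandas 2.3.3 were used. The arithmetic was checked on simulated data without zeros or low values, so that the check does not cover such loci.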

Additional observations from a re-analysis of the deposited data

Results flagged for a closer look

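The drought differences of the genotypes had opposite signs, with a size of 1 or more in each on the log2(FPKM + 1) scale, at few loci. There were 32 higher in DT and lower in DS (0.154% of the loci used) and 42 lower in DT and higher in DS (0.202%). They were picked out because, at each of these loci, one genotype moved against the other. The difference between the genotypes was not tested, since each condition is 1 pooled value.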

How the results depend on the processing

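No paired analysis was possible because each column pools the 2 replicates of its condition, and for the same reason no replicate could be left out. Counts are given in the order positive set, negative set, opposite movers higher in DT, opposite movers lower in DT, which were 161, 341, 32 and 42. They were 416, 777, 72 and 147 with a pseudocount of 0.1, and 55, 102, 6 and 10 with a pseudocount of 5. With an FPKM of at least 1 in all 4 columns they were 101, 191, 18 and 21. With the columns rescaled to the same summed FPKM they were 88, 550, 19 and 71. Among loci with a gene identifier alone the last 3 were 171, 19 and 17, and the positive set held 110. Without the filter, after centring on the median or within 10 expression groups, and after quantile normalization, each count stayed within 1.5 times. This also held without loci listed at 0, an alternative chosen after seeing the data. After centring within groups 144 of the 161 positive and 278 of the 341 negative loci remained in their sets.

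The list medians moved by 0.1 or more under the following settings. Rescaling gave -0.66 for phosphoinositide, -0.0934 for glutathione and ascorbate, -0.0254 for glycolysis and -0.76 for the QTL-hotspot. Centring within groups gave 0.0369 for glutathione and ascorbate and 0.14 for glycolysis, and quantile normalization gave 0.13 and 0.16. The QTL-hotspot median was -0.18 with a pseudocount of 0.1 and -0.25 with one of 5. All 19 listed genes with a size of 1 or more kept their sign under the pseudocount, rescaling, centring and quantile alternatives, and between 9 and 19 of them kept the size. The causes of these shifts were not tested. Values under an FPKM of about 1 rest on few fragments, and with pooled columns the data do not show how far any of these values would vary between plants.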

Other observations

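The longest run of consecutive locus numbers among the 502 loci held 3 loci without a gene identifier, chosen here after their values were seen. In DT they hardly differed between conditions, at 2.40, 3.65 and 3.53 FPKM in DT(D) and 2.33, 3.25 and 3.62 FPKM in DT(C). In DS they were at 3.39, 5.10 and 7.56 FPKM in DS(D), against a listed 0, 0.267 and 0.570 FPKM in DS(C). All 3 were thus low in DS(C) alone, with differences of differences of -2.10, -2.14 and -2.48. Of the 36 adjacent pairs of members, 5 had opposite signs.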
